A study of Homo sapiens with 10 samples.

Results

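The alpha-arrestins *ARRDC1*, *ARRDC2*, *ARRDC3*, *ARRDC4* and *TXNIP* were examined in T47D cells, a luminal breast cancer line that expresses estrogen receptor. The members were taken by gene symbol, and 5 of 5 were found among the 19695 genes counted in RNA-seq. The study had 2 RNA-seq libraries each of cells treated with control siRNA, *TRPS1* siRNA or *CHD4* siRNA, collected 72 h after transfection, and 2 TRPS1 ChIP-seq and 2 input libraries of T47D cells with a single list of 1844 TRPS1 peaks. Which of these libraries entered the list is not given in the sources used here. No other genotype or treatment was named for any group, and the labels call the *CHD4* reagent an siRNA while one passage of the study's methods calls it an shRNA. TRPS1 is an atypical GATA-family repressor, and CHD4 is the chromatin remodeling ATPase of the NuRD corepressor complex. The comparisons address which transcripts change when the repressor or its cofactor is silenced. Nothing in the labels says that the 2 libraries of a group came from separate cultures, so the p-values measure only the spread between these libraries, which may be technical. In bulk RNA, fewer cells that express a gene and less RNA per cell cannot be told apart.

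Alpha-arrestins are adaptor proteins with an arrestin fold. Most of them carry short proline-rich motifs that recruit ubiquitin ligases of the NEDD4 family, and so direct membrane proteins into endosomes and lysosomes. ARRDC3 has been studied in breast cancer cells as an adaptor for integrin beta-4 turnover, ARRDC1 drives the budding of vesicles from the plasma membrane with TSG101, and ARRDC4 and TXNIP lower glucose uptake. TXNIP also binds and inhibits thioredoxin. Transcription of *TXNIP* and *ARRDC4* is known to follow glucose through the factors MondoA (*MLXIP*), ChREBP (*MLXIPL*) and MLX, which bind E-box elements in their promoters.

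A gene was called when it differed more than 2-fold with an unadjusted p under 0.05 from edgeR. Of all tested genes, 2.7% were called higher and 3.17% lower with *TRPS1* siRNA, and 2.6% and 2.85% with *CHD4* siRNA. After adjustment 0.0% passed 0.05 in either knockdown. Of the 5 members, *ARRDC3* was the only one called in either knockdown, at 2.76 times its control level with *TRPS1* siRNA and 3.12 times with *CHD4* siRNA. A TRPS1 peak lay 71 bp upstream of its transcription start. *ARRDC4* also had a TRPS1 peak at its start, 120 bp upstream, but neither it nor *TXNIP* was called, and in both knockdowns their levels were low in replicate 1 and high in replicate 2. *ARRDC1* and *ARRDC2* were not called and had no TRPS1 peak within 100 kb. In RefSeq (GRCh38.p14) *ARRDC3* spans chr5:91368631-91383317 and *TXNIP* chr1:145992435-145996579, both on the minus strand. *ARRDC4* spans chr15:97960703-97973833, *ARRDC1* chr9:137605686-137615360 and *ARRDC2* chr19:18001124-18014102, all on the plus strand.

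The promoters of *ARRDC3*, *ARRDC4* and *TXNIP* are shown because they differ in whether a TRPS1 peak reaches them. Each is the 250 bases before the first start that RefSeq lists (build GRCh38.p14), written 5' to 3' on the strand of the gene. In *ARRDC3* and *ARRDC4* the capitals mark the bases inside a TRPS1 peak, 180 bases and 131 bases. No peak reaches the *TXNIP* promoter, and there the capitals mark a pair of E-box-like elements.
ARRDC3, chr5:91383318-91383567, minus strand: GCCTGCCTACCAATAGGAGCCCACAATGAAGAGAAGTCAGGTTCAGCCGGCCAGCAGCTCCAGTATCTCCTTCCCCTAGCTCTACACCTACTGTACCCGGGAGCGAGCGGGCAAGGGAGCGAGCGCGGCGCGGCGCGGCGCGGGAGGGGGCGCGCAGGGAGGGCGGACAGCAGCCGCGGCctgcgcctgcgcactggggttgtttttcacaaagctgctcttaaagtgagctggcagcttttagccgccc
ARRDC4, chr15:97960453-97960702, plus strand: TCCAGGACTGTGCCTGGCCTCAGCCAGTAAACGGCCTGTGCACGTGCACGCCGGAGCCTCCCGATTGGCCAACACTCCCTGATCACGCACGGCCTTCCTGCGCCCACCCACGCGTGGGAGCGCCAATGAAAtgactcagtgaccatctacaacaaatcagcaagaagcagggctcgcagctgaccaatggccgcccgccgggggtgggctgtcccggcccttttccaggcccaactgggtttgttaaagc
TXNIP, chr1:145996580-145996829, minus strand: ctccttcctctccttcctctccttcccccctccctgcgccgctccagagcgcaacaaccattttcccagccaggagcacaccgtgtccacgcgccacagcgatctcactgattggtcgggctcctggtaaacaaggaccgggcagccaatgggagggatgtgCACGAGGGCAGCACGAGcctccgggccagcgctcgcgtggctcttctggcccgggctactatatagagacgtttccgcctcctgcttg

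The peak at *ARRDC3*, chr5:91383388-91383856, was 469 bp wide, more than 89.3% of all peaks, of which the median was 288 bp. RefSeq lists a second *ARRDC3* start downstream of the first, and the peak lay 3291 bp from it. The peak also lay inside *ARRDC3-AS1*, a long noncoding RNA gene whose own start was 3041 bp away and which overlaps *ARRDC3* by 2971 bp. The next TRPS1 peaks were 658.3 kb and 735.9 kb upstream of *ARRDC3*, with no other peak within 1 Mb of it.

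The peak at *ARRDC4*, chr15:97960216-97960583, was 368 bp wide, more than 75.7% of all peaks. The only other peak within 1 Mb of *ARRDC4* lay 819.0 kb downstream of the start, inside *IGF1R*. *TXNIP* had no peak near its start. Its nearest peak, chr1:146051743-146052403, lay 55.16 kb upstream and only 193 bp from the start of *LINC01719*, and a second lay 77.63 kb on the downstream side, nearest to *RBM8A*. The nearest peak was 432.3 kb from the *ARRDC1* start, and 356.7 kb from the nearer of the 2 *ARRDC2* starts. Thus 2 of the 5 members examined had a TRPS1 peak within 5 kb of a listed start, beside 3.16% of the 15843 protein-coding genes with a listed start. Within 100 kb the count was 3 of 5, beside 17.9%. These shares include protein-coding genes that are not expressed in T47D cells, whereas the members were all expressed. The members were also chosen with earlier results of these data known.

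**Figure D1:**
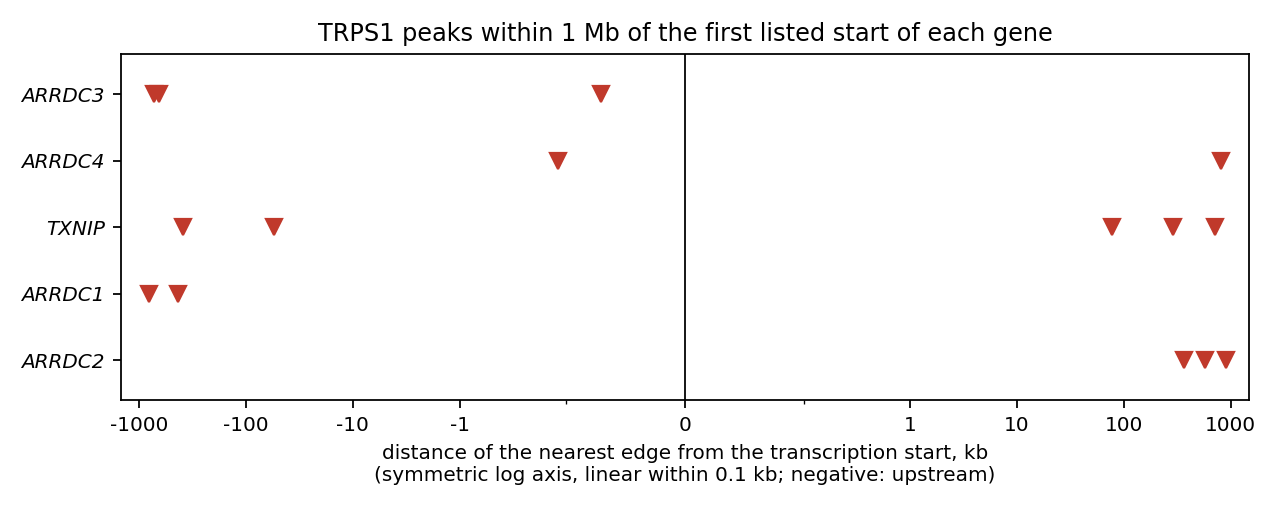
Distance in kb from the first listed start of each gene to the nearest edge of every TRPS1 peak within 1 Mb, on a symmetric log axis with upstream to the left, each triangle being a peak. *ARRDC3* and *ARRDC4* have a peak less than 1 kb upstream, whereas the nearest peak of *TXNIP* is 55.16 kb away and the nearest peaks of *ARRDC1* and *ARRDC2* are 432.3 and 363.8 kb away.

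The windows were searched on both strands. The GATA core, GATA, occurred once, in *ARRDC3*, as TATC starting 187 bp before the start and inside the peak, and 45.6% of the 35116 RefSeq windows of this length hold it. The extended GATA element, whose forms are AGATAA, then AGATAG with another last base, then TGATAA with another first base, and lastly TGATAG, was in no window of the 5 genes and in 22.3% of all windows. The extended forms contain the core, so the counts are not independent. An E-box, CACGTG, which reads the same on both strands, occurred once, in *ARRDC4*, starting 210 bp before the start and inside the peak. Of all windows, 6.34% hold it. The pair of E-box-like elements, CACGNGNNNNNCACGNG, was found in *TXNIP* as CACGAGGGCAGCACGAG, starting 88 bp before the start, and 16 windows in all (0.0456%) hold the pair. The 250-base windows do not cover the whole of either peak, and these matches are letters in a window rather than shown binding sites. By base composition the first promoter windows of *ARRDC3*, *ARRDC4* and *TXNIP* were alike, with 65.6%, 62.8% and 63.6% G and C, and those of *ARRDC1* and *ARRDC2* held 82.0% and 70.4%, beside a median of 58.0% over all windows.

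Library totals were between 10333138 and 14668358 counts. A level of 3 counts, taken as the floor, corresponded to between 0.197 and 0.288 CPM (counts scaled to a common library size), so the 5 members were well above it everywhere. Levels are given as CPM normalized by the trimmed mean of M values (TMM) over the 6 libraries. Of the luminal markers, 9 of 9 exceeded 2 CPM in every library. Among the markers of other cells, 0 of 5 basal or mesenchymal, 0 of 3 immune, 1 of 3 fibroblast and 0 of 2 endothelial genes did so. Of the luminal keratins, *KRT8* was at 5196 and 3336 CPM in the controls and between 1075 and 1232 CPM in the 4 knockdown libraries, and *KRT19* at 3522 and 2109 CPM and between 935.6 and 1136 CPM. The other luminal markers differed in direction. In the order control, *TRPS1* and *CHD4* siRNA, mean CPM were 98.28, 126.3 and 118.4 for *EPCAM* and 276.3, 231 and 318.3 for *FOXA1*. They were 1078, 961.3 and 876.3 for *CDH1*, 1379, 858 and 1304 for *PGR*, and 2168, 1144 and 791 for *KRT18*. For *ESR1* they were 332.3, 216.4 and 217, and for *GATA3* 664.5, 474.8 and 359. Control siRNA replicate 1 stood apart, with a correlation of log2 CPM across genes of 0.837 to 0.861 with the other libraries, whereas all other pairs had 0.939 to 0.975. Each targeted transcript was lower with its own siRNA. *TRPS1* was at 1445 and 2269 CPM with control siRNA and at 1166 and 721.6 CPM with *TRPS1* siRNA. Its log2 fold change was -0.97 (SE 0.394, unadjusted p = 0.0459 and adjusted p = 0.659 from edgeR), under the 2-fold limit, so it was not called. The groups did not overlap, and 21.3% of all tested genes were lower without overlap. Leaving out 1 library gave *TRPS1* log2 fold changes from -1.34 to -0.61. *CHD4* fell from 300.3 and 285.5 CPM to 95.75 and 54.31 CPM with *CHD4* siRNA, a log2 fold change of -1.96 (SE 0.417, unadjusted p = 0.00186 and adjusted p = 0.784 from edgeR).

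Genes were tested with edgeR's quasi-likelihood test on each pair of groups and called when they differed more than 2-fold with an unadjusted p under 0.05. With *TRPS1* siRNA, 2.7% of the 12921 genes tested were called higher and 3.17% lower. With *CHD4* siRNA, 2.6% of 12918 were called higher and 2.85% lower. After Benjamini-Hochberg adjustment over all genes, 0.0% passed 0.05 in either comparison with this tool. There were 902 and 769 genes with an unadjusted p under 0.05, and DESeq2 gave 39 and 50 genes after adjustment. Both comparisons use the same 2 control libraries. An exact two-sided permutation test of a single gene has 0.33 as its smallest p in this design of 2 libraries against 2.

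*ARRDC3*, the endosomal adaptor, was at 30.92 and 40.44 CPM in the control libraries, at 108.7 and 88.0 CPM with *TRPS1* siRNA and at 139.0 and 82.38 CPM with *CHD4* siRNA. Each of the 4 knockdown libraries was above both controls, and the lowest of them was about double the higher control. Its log2 fold change was 1.47 with *TRPS1* siRNA (SE 0.356, unadjusted p = 0.00534, adjusted p = 0.659, edgeR). With *CHD4* siRNA it was 1.64 (SE 0.432, unadjusted p = 0.00595, adjusted p = 0.792, edgeR). *ARRDC3* ranked 387 among the tested genes by increase with *TRPS1* siRNA and 288 with *CHD4* siRNA, and by p it ranked 62 and 81. With *TRPS1* siRNA 22.8% of genes were higher without overlap of the groups, and with *CHD4* siRNA 20.1%, so the separation alone is common here.

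The call of *ARRDC3* depended on which library was left out. With *TRPS1* siRNA, the log2 fold change was 1.29 without control siRNA replicate 1 and 1.67 without control siRNA replicate 2. It was 1.32 without *TRPS1* siRNA replicate 1, where the call was lost (unadjusted p = 0.106, edgeR), and 1.62 without replicate 2 (unadjusted p = 0.044). With *CHD4* siRNA it was 1.47 and 1.85 without control siRNA replicates 1 and 2. Without *CHD4* siRNA replicate 1 it was 1.24 and the call was again lost (unadjusted p = 0.136, edgeR), and without replicate 2 it was 1.995 (unadjusted p = 0.0122). Without control siRNA replicate 2 only the control library that stood apart remained, and far more of all genes were then called. Over all 14 settings tried, the reported one included, the log2 fold change was between 1.29 and 1.67 with *TRPS1* siRNA. With *CHD4* siRNA it was between 1.24 and 1.995, and it was above 2-fold in each setting.

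**Figure D2:**
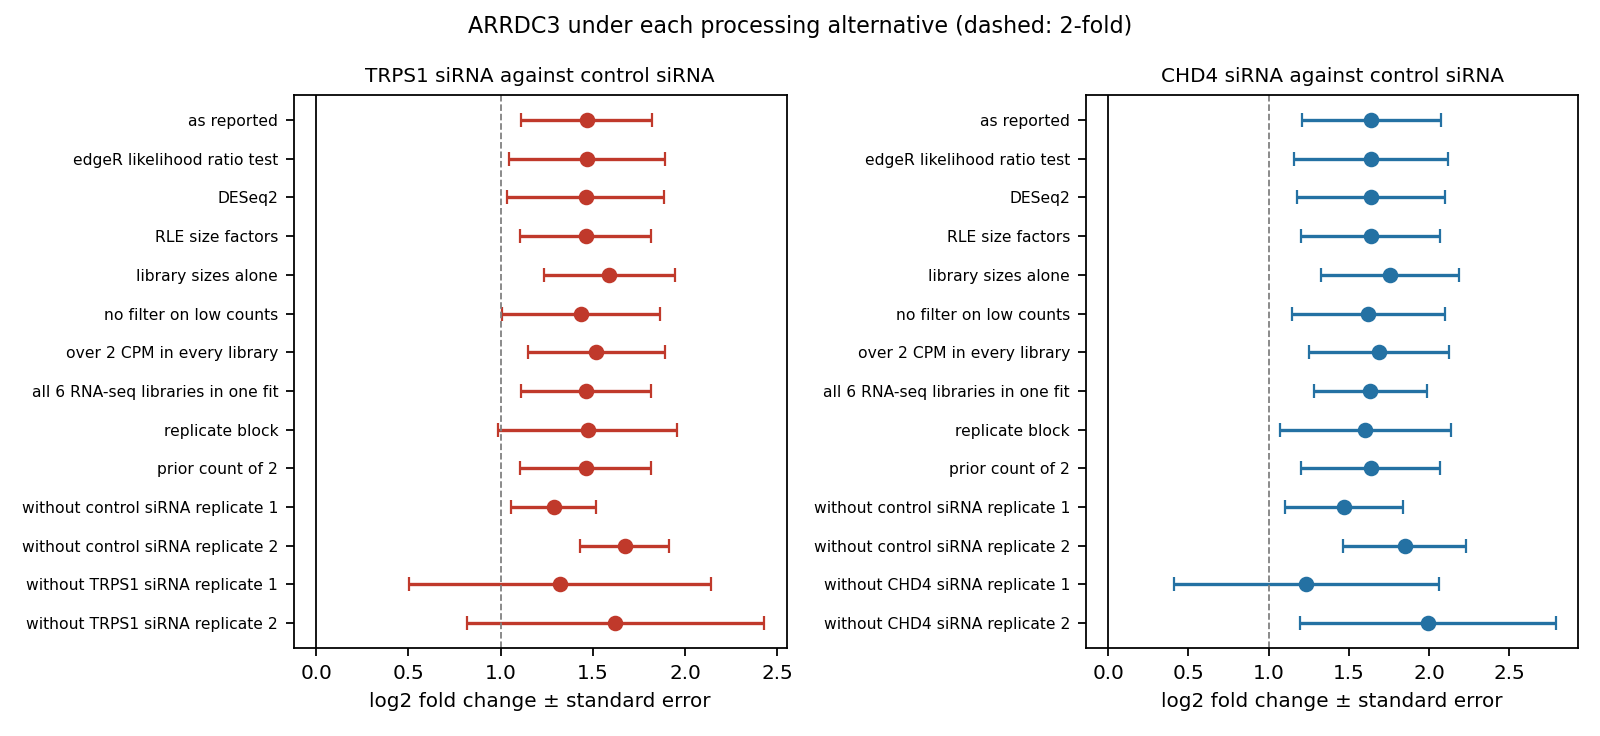
Log2 fold change of *ARRDC3* (points) with its standard error (bars) in each knockdown against control siRNA, under the reported processing and each alternative listed at the left. All points lie above the dashed 2-fold line, and the bars are widest where 1 knockdown library was left out.

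The antisense neighbor *ARRDC3-AS1* was at 0.6594 and 2.565 CPM in the controls, at 5.274 and 3.347 CPM with *TRPS1* siRNA and at 4.106 and 4.332 CPM with *CHD4* siRNA. All 4 knockdown libraries were above both controls, as in 22.8% and 20.1% of genes for each knockdown taken singly, but it was not called. Its log2 fold changes were 1.42 (SE 0.811, unadjusted p = 0.129) and 1.39 (SE 0.826, unadjusted p = 0.133, edgeR). They rested on the controls, being 0.74 and 0.73 without control siRNA replicate 1. Without replicate 2 they were 2.68 and 2.67 and both were called, against only the control library that stood apart. Whether reads were counted by strand is not given in the sources used here, and without strand the reads of the 2971 bp shared by *ARRDC3* and *ARRDC3-AS1* cannot be told apart.

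*ARRDC4*, which like TXNIP is known to lower glucose uptake, was at 13.41 and 18.11 CPM in the controls. It was at 8.918 and 30.45 CPM with *TRPS1* siRNA and at 8.773 and 34.25 CPM with *CHD4* siRNA. In both knockdowns replicate 1 was below both controls and replicate 2 above both, so the groups overlapped. The log2 fold changes, 0.33 (SE 0.617, unadjusted p = 0.608) and 0.46 (SE 0.646, unadjusted p = 0.5, edgeR), were smaller than their errors.

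*TXNIP*, the thioredoxin-binding member, was at 154.4 and 218.9 CPM in the controls, at 18.41 and 321.0 CPM with *TRPS1* siRNA and at 51.42 and 375.6 CPM with *CHD4* siRNA. It had the same order as *ARRDC4*, low in the first and high in the second replicate of each knockdown, over a wider range. The mean was 186.7 ± 45.66 CPM in the controls, 169.7 ± 213.9 with *TRPS1* siRNA and 213.5 ± 229.2 with *CHD4* siRNA (SD, n = 2 libraries each). The log2 fold changes were -0.13 (SE 1.07, unadjusted p = 0.909) and 0.20 (SE 0.781, unadjusted p = 0.803, edgeR).

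Which replicate was kept decided the direction for both genes. Without *TRPS1* siRNA replicate 2, the log2 fold change of *TXNIP* was -3.33 and that of *ARRDC4* -0.81, and without replicate 1 they were 0.80 and 0.97. Without *CHD4* siRNA replicate 2 they were -1.83 and -0.81, and without replicate 1 they were 1.04 and 1.15. The drop of *TXNIP* was called without *TRPS1* siRNA replicate 2 (unadjusted p = 0.000616) and without *CHD4* siRNA replicate 2 (unadjusted p = 0.0371, edgeR), at an adjusted p of 1 in each. In *TRPS1* siRNA replicate 1, where both genes were low, the mesenchymal marker *VIM* was at 17.26 CPM, against 1.12 to 2.867 CPM in the other libraries. Summed over the 5 basal and mesenchymal markers, the libraries ranged from 1.867 to 18.89 CPM, and *VIM* made up most of the highest sum. *VIM* was at 1.12 CPM in *CHD4* siRNA replicate 1, where both genes were also low. The part of these markers in the result was not tested.

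**Figure D3:**
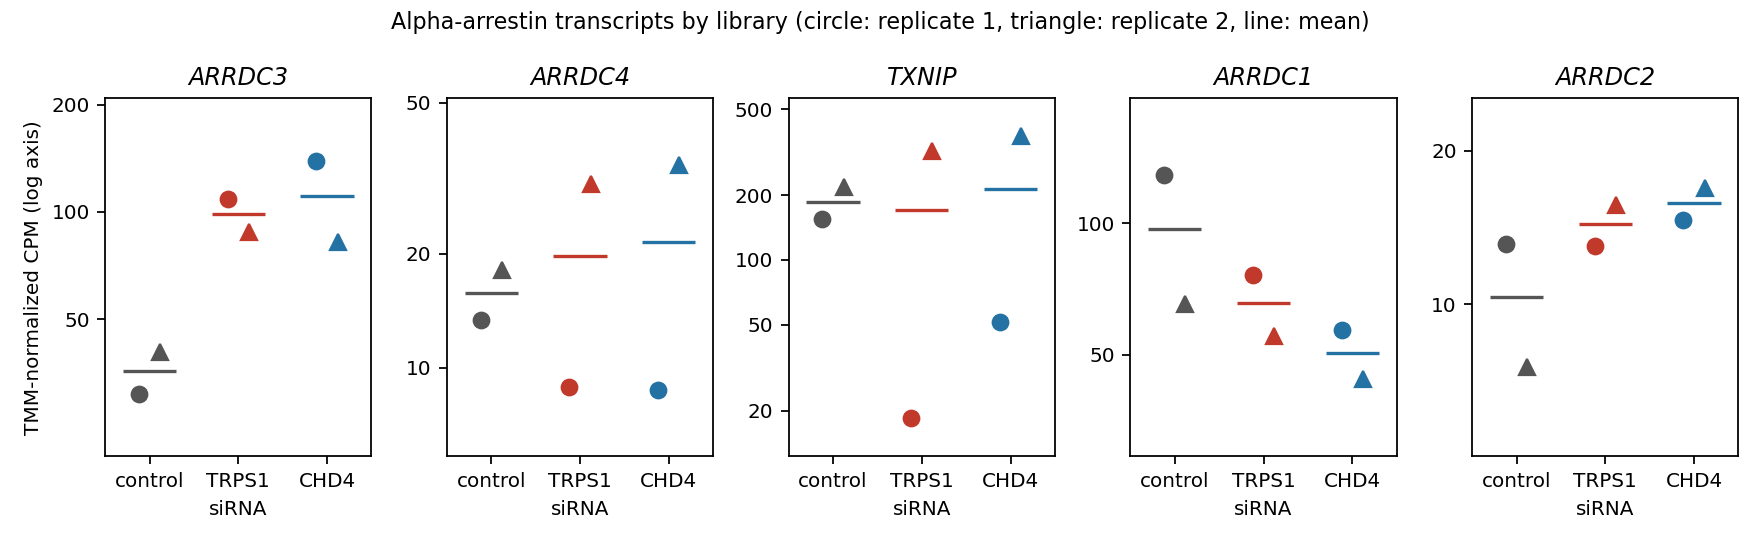
TMM-normalized CPM (log axis) of each alpha-arrestin in each library, with circles for replicate 1, triangles for replicate 2 and a line at the group mean. *ARRDC3* is higher in all 4 knockdown libraries than in both controls, whereas *ARRDC4* and *TXNIP* fall below the controls in replicate 1 and above them in replicate 2 of both knockdowns.

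The gap between the replicates was large for these genes. *TXNIP* was 17.4 times as high in replicate 2 as in replicate 1 of *TRPS1* siRNA, and 2 of 13269 genes, *TXNIP* among them, differed as much in either direction (0.0151%). In *CHD4* siRNA it was 7.3 times as high, a gap reached by 27 genes (0.203%), and in the controls 1.42 times. *ARRDC4* was 3.41 times as high in *TRPS1* siRNA replicate 2 as in replicate 1 and 3.9 times in *CHD4* siRNA, gaps that 79 and 92 genes reached, and 1.35 times in the controls. *ARRDC3* went the other way, at 0.809 and 0.593 times its replicate 1 level in the knockdowns. Deviations of same-numbered knockdown libraries correlated at 0.61 across the 13269 genes. The order shared by the 2 knockdowns may therefore not be 2 separate observations.

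*ARRDC4* kept a narrow share of the counts of *ARRDC4* and *TXNIP* together in 4 libraries. It was 7.99% (95% exact binomial interval 6.91 to 9.18) and 7.64% (6.73 to 8.62) in the controls, 8.66% (7.92 to 9.45) in *TRPS1* siRNA replicate 2 and 8.36% (7.61 to 9.15) in *CHD4* siRNA replicate 2. In the libraries where both were low it was higher, at 32.6% (27.2 to 38.4) in *TRPS1* siRNA replicate 1 and 14.6% (11.9 to 17.5) in *CHD4* siRNA replicate 1. Counts are not corrected for gene length, so the shares serve only to compare libraries. The intervals cover counting error only.

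Genes with levels most like each member were found by the root mean square difference of centred log2 CPM over the 6 libraries, as a description. For *TXNIP* they were *LAMP3*, *ISG15* and *IFIT1*, at differences of 0.474, 0.513 and 0.543, beside a median of 1.61 over all 13269 genes. These 3 are known as interferon-inducible genes. *ISG15* was at 55.24 and 38.93 CPM in the controls, 5.37 and 79.41 CPM with *TRPS1* siRNA and 6.066 and 82.14 CPM with *CHD4* siRNA. *ARRDC4* ranked 26 among the genes most like *TXNIP*, at a difference of 0.912. In the other direction *TXNIP* ranked 7509 of 13269 among the genes most like *ARRDC4*, where the median difference was 0.885.

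For *ARRDC4*, *USP18* and *IFIH1* were among the nearest 3, at differences of 0.213 and 0.214 beside a median of 0.885, and these too are known to respond to interferon. *IFIH1*, a sensor of double-stranded RNA, was at 26.45 and 35.61 CPM in the controls, 23.01 and 62.87 CPM with *TRPS1* siRNA and 18.48 and 53.1 CPM with *CHD4* siRNA. Like *ARRDC4* and *TXNIP*, *LAMP3*, *ISG15*, *IFIT1*, *USP18* and *IFIH1* were lowest in replicate 1 of each knockdown and highest in replicate 2. That order follows from how they were picked, by their likeness to *TXNIP* or *ARRDC4* over these same libraries. The part of these genes in the result for *TXNIP* and *ARRDC4* was not tested.

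For *ARRDC3* the nearest genes were *AMOTL1*, *PRDM11* and *TBC1D9*, at differences of 0.128, 0.16 and 0.166 beside a median of 0.851. *AMOTL1*, a junctional protein of the angiomotin family, was at 14.07 and 17.96 CPM in the controls, 52.26 and 42.72 CPM with *TRPS1* siRNA and 52.45 and 40.03 CPM with *CHD4* siRNA. Among the other members, *ARRDC2* had the pattern least far from that of *ARRDC3*, at 0.645, and *TXNIP* the farthest, at 2.01.

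**Figure D4:**
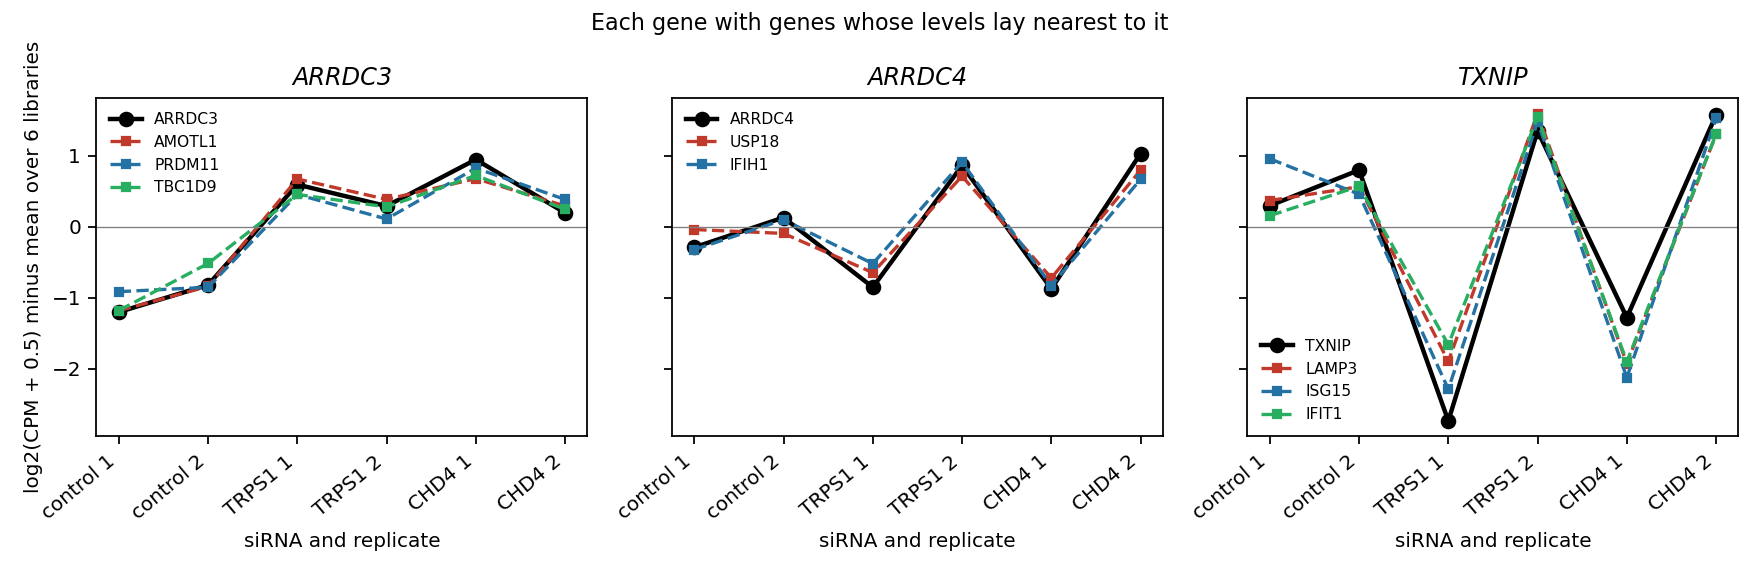
Log2 of CPM plus 0.5, centred on the mean of the 6 libraries, for *ARRDC3*, *ARRDC4* and *TXNIP* (black) and genes nearest to each (colored, 3 for *ARRDC3* and *TXNIP* and 2 for *ARRDC4*), by library. *ARRDC3* and its nearest genes are low in both controls, whereas *ARRDC4*, *TXNIP* and theirs dip in replicate 1 of both knockdowns.

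*ARRDC1*, the vesicle-budding member, was at 128.9 and 65.26 CPM in the controls, 76.14 and 55.13 CPM with *TRPS1* siRNA and 57.02 and 43.96 CPM with *CHD4* siRNA. Both *CHD4* siRNA libraries were below both controls, as in 19.7% of genes, while the *TRPS1* siRNA libraries overlapped the controls (21.3% of genes were lower without overlap there). The log2 fold changes were -0.56 (SE 0.439, unadjusted p = 0.244) and -0.94 (SE 0.453, unadjusted p = 0.0752, edgeR). They depended on the control library that stood apart, being 0.01 and -0.35 without it (control siRNA replicate 1). Against it alone, without replicate 2, they were -0.97 and -1.34. *ARRDC1-AS1*, which overlaps the gene by 29 bp, was at 11.58 and 6.413 CPM in the controls and between 5.374 and 10.73 CPM in the knockdowns.

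*ARRDC2*, an alpha-arrestin whose role is less well known, was at 13.11 and 7.545 CPM in the controls, 13.04 and 15.68 CPM with *TRPS1* siRNA and 14.65 and 16.93 CPM with *CHD4* siRNA. It was above both controls in the *CHD4* siRNA libraries, as in 20.1% of genes. With *TRPS1* siRNA it overlapped the controls, while 22.8% of genes were higher without overlap. The log2 fold changes were 0.48 (SE 0.463, unadjusted p = 0.337) and 0.62 (SE 0.486, unadjusted p = 0.241, edgeR). Without control siRNA replicate 1 they were 0.94 and 1.08, and the second was then called (unadjusted p = 0.0209, edgeR). Without control siRNA replicate 2 they were 0.14 and 0.28 (unadjusted p = 0.661 and 0.437, edgeR).

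In counts, 1 of 5 members was called higher and 0 lower in each knockdown. Of all tested genes, 2.7% and 2.6% were called higher and 3.17% and 2.85% lower. The median log2 fold change of the members was 0.33 with *TRPS1* siRNA and 0.46 with *CHD4* siRNA, beside -0.02 over all tested genes in each. The number of members called changed with the library left out, and so did the share of all tested genes called.

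The knockdowns were also set against each other. None of the members was called in either direction, beside 2.12% of the 13143 genes called higher with *CHD4* siRNA and 1.56% lower, and no member separated the groups, beside 23.3% of genes higher and 23.8% lower without overlap. After adjustment, 0.0% of genes passed 0.05 (smallest adjusted p = 0.0903, 2023 genes with an unadjusted p under 0.05, edgeR), and DESeq2 gave 456 genes. The log2 difference of *ARRDC3*, *CHD4* siRNA over *TRPS1* siRNA, was 0.18 (SE 0.274, unadjusted p = 0.535), and it was -0.25 without *CHD4* siRNA replicate 1. Those of *ARRDC4* and *TXNIP* were 0.12 (SE 0.752) and 0.32 (SE 1.3), with errors wide enough to hide a difference of 2-fold. That of *TXNIP* was called without *TRPS1* siRNA replicate 2, at 3.57 (unadjusted p = 0.0139, edgeR). *ARRDC1* and *ARRDC2* differed by -0.37 (SE 0.228, unadjusted p = 0.158) and 0.14 (SE 0.218, unadjusted p = 0.543, edgeR).

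**Figure D5:**
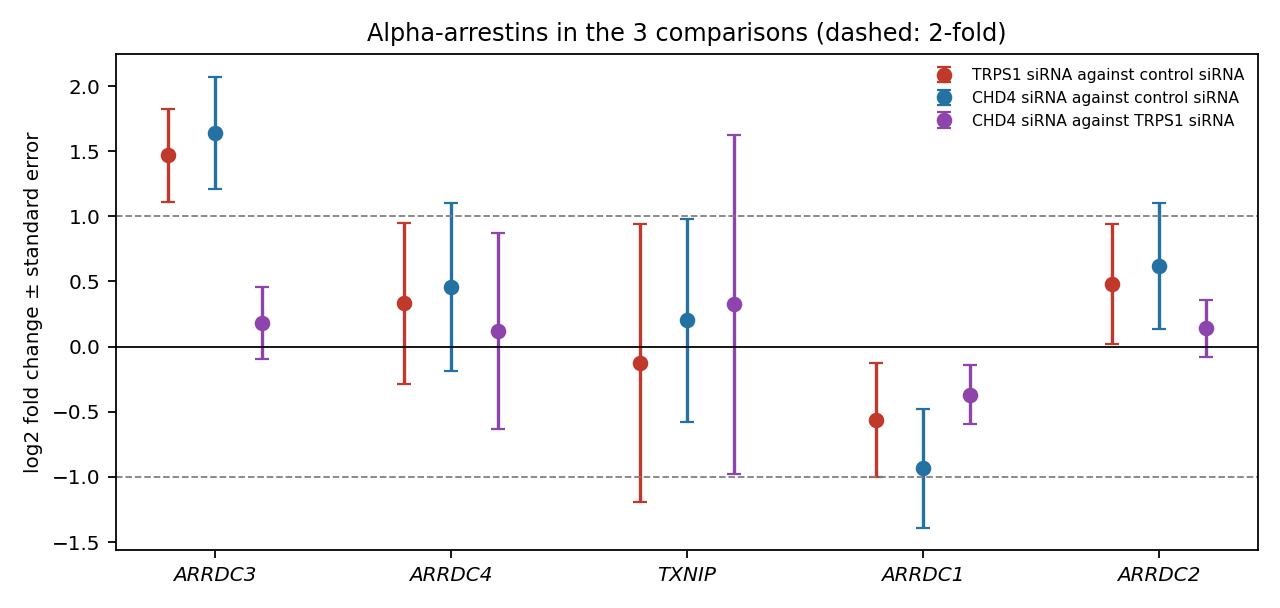
Log2 fold change (points) and standard error (bars) of each alpha-arrestin in the 3 comparisons, with dashed lines at 2-fold. Only *ARRDC3*, against control siRNA, lies beyond 2-fold, at 1.47 and 1.64, and the bars of *TXNIP* are the widest.

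Of the NEDD4-family ubiquitin ligases, 7 of 9 were tested and 0 were called in any comparison. Of all tested genes, between 1.56% and 3.17% were called in each direction of a comparison. The median log2 fold changes of the ligases were 0.14, -0.08 and -0.22 in the order *TRPS1* siRNA, *CHD4* siRNA and *CHD4* over *TRPS1* siRNA. *ITCH* was at 122.7 and 168.5 CPM in the controls, 196.7 and 190.0 CPM with *TRPS1* siRNA and 145.9 and 132.0 CPM with *CHD4* siRNA. *WWP1* was at 60.81 and 139.8 CPM, then 108.3 and 120.7 CPM, and then 158.5 and 119.3 CPM in the same order. *HECW1* and *HECW2* were too low to test. Of the other arrestins, *ARRB1* and *ARRB2*, which couple to activated receptors, were tested and not called, with log2 fold changes between -0.57 and 0.30 over the 3 comparisons. *ARRDC5*, which was not among the members and was not checked for a peak, had 1 count in all, *SAG* had 1, and *ARR3* had no entry.

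Of the glucose-sensing factors, 0 of 3 were called in any comparison, beside 1.56% to 3.17% of all tested genes in each direction. *MLXIP* was at 134.4 and 87.9 CPM in the controls, 101.8 and 91.94 CPM with *TRPS1* siRNA and 126.9 and 130.2 CPM with *CHD4* siRNA. *MLXIPL* was at 48.72 and 21.95 CPM in the controls, 44.21 and 25.2 CPM with *TRPS1* siRNA and 33.97 and 28.16 CPM with *CHD4* siRNA. *MLX* was at 102.7 and 60.28 CPM, then 47.37 and 39.64 CPM, and then 74.1 and 59.04 CPM. The log2 fold change of *MLX* was -0.90 with *TRPS1* siRNA (SE 0.396, unadjusted p = 0.0602, edgeR). These are transcript levels, and the part of the factors in the levels of *TXNIP* and *ARRDC4* was not tested.

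In the thioredoxin system, 0 of 5 genes were called with *TRPS1* siRNA and 1 of 5, *TXN2*, was called lower with *CHD4* siRNA. Of all tested genes, 2.7% were called higher and 3.17% lower with *TRPS1* siRNA, and 2.6% and 2.85% with *CHD4* siRNA. The median log2 fold changes of the 5 genes were -0.34 and -0.63. *TXN2*, mitochondrial thioredoxin, was at 93.93 and 53.57 CPM in the controls and 31.92 and 35.54 CPM with *CHD4* siRNA, a log2 fold change of -1.12 (SE 0.431, unadjusted p = 0.0336, edgeR). That value was -0.65 without control siRNA replicate 1, under 2-fold, and -1.47 without replicate 2, where only the control that stood apart remained. With library sizes alone it was -0.98, and the unadjusted p was 0.245 and 0.185 without *CHD4* siRNA replicates 1 and 2. *TXN*, the cytosolic thioredoxin that TXNIP binds, was at 353.7 and 252.2 CPM in the controls, 142.1 and 173.6 CPM with *TRPS1* siRNA and 164.3 and 205.6 CPM with *CHD4* siRNA. It was below both controls in all 4 knockdown libraries, as in 21.3% and 19.7% of genes for each knockdown taken singly. Its log2 fold changes were -0.94 (SE 0.347, unadjusted p = 0.0333) and -0.70 (SE 0.373, unadjusted p = 0.0985, edgeR), and it was not called. With *TRPS1* siRNA it was at -0.67 without control siRNA replicate 1. Without replicate 2 it was at -1.16 and called, against only the control that stood apart. *TXNRD1*, the cytosolic thioredoxin reductase, was at 269.4 and 549.9 CPM in the controls, 458.3 and 480.5 CPM with *TRPS1* siRNA and 338.0 and 190.1 CPM with *CHD4* siRNA, and was not called in any comparison.

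Of the cargo and partner genes, 10 of 11 were tested. Of all tested genes, 2.7% and 2.6% were called higher in the 2 knockdowns and 3.17% and 2.85% lower. Among the 10, 1 gene was called higher and 0 lower in each knockdown. It was *SLC2A3*, the glucose transporter GLUT3, at 0.7327 and 0.9808 CPM in the controls, 3.26 and 3.084 CPM with *TRPS1* siRNA and 11.95 and 4.492 CPM with *CHD4* siRNA. Its log2 fold changes were 1.88 (SE 0.668, unadjusted p = 0.0284) and 3.25 (SE 0.782, unadjusted p = 0.00367, edgeR), from control counts of 10 and 13. With *TRPS1* siRNA the call was lost with DESeq2 (unadjusted p = 0.0987), and with edgeR without the filter on low counts (unadjusted p = 0.0545) or with the replicate block (unadjusted p = 0.0828). It no longer passed the filter when a library of either knockdown was left out, since the controls were under 2 CPM. *SLC2A1*, the transporter GLUT1 that TXNIP is known to lower at the cell surface, was at 155.4 and 101.0 CPM in the controls, 61.18 and 70.22 CPM with *TRPS1* siRNA and 106.2 and 94.01 CPM with *CHD4* siRNA. Its log2 fold change with *TRPS1* siRNA was -0.96 (SE 0.368, unadjusted p = 0.0379, edgeR), under the 2-fold limit, and without control siRNA replicate 1 it was -0.61. Without control siRNA replicate 2, against only the control that stood apart, it was -1.24 and called. *ITGB4*, the integrin beta-4 gene, was at 317.4 and 106.8 CPM in the controls, 135.7 and 150.9 CPM with *TRPS1* siRNA and 87.07 and 105.2 CPM with *CHD4* siRNA. The higher control was the library that stood apart. The log2 fold changes of *ITGB4* were -0.56 (SE 0.531, unadjusted p = 0.329) and -1.13 (SE 0.537, unadjusted p = 0.0703, edgeR). The second was beyond 2-fold, but *ITGB4* was not called. *SLC11A2*, the iron transporter DMT1, was at 165.2 and 287.3 CPM in the controls, 175.5 and 158.4 CPM with *TRPS1* siRNA and 287.4 and 258.8 CPM with *CHD4* siRNA, and was not called in any comparison.

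Between the knockdowns, 2.12% of all tested genes were called higher with *CHD4* siRNA than with *TRPS1* siRNA. Of the 10 cargo and partner genes tested, 2 were called higher. They were *SLC2A3*, at a log2 difference of 1.38 (SE 0.507, unadjusted p = 0.0354), and *NOTCH1*, a receptor handled by alpha-arrestins and ITCH, at 1.01 (SE 0.191, unadjusted p = 0.00194, edgeR). *NOTCH1* was at 92.15 and 83.48 CPM with *TRPS1* siRNA and 202.0 and 150.0 CPM with *CHD4* siRNA, and at 161.6 and 71.07 CPM in the controls. Without *CHD4* siRNA replicate 1 these differences were 0.50 and 0.77, and without *TRPS1* siRNA replicate 2 the second was 0.96, all under 2-fold. The *SLC2A3* call was also lost without *TRPS1* siRNA replicate 1 or 2 (unadjusted p = 0.0596 and 0.082, edgeR) or with all 6 libraries in one fit (unadjusted p = 0.0551, edgeR), and *NOTCH1* was just under 2-fold with the replicate block.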

How the data were processed

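Per the labels and the study's methods, RNA-seq reads were trimmed by the authors, mapped with STAR and tallied for each gene symbol by HTSeq 0.9.0 on hg38, and the deposited values are the raw counts. TRPS1 ChIP and input reads were aligned with BWA 0.7.12-r1039, and peaks were called with MACS2 2.1.1. The deposited peak list holds positions, here converted to 1-based, and whether replicates were pooled is not given in the sources used here. The counting annotation and strand setting are likewise not given.

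Of the 4 libraries of a comparison, at least 2 had to exceed 2 CPM for a gene to be kept, and kept genes were normalized by TMM and tested with edgeR 4.0.16 (quasi-likelihood F-test, prior count 0.125, R 4.3.3). A gene was called past a fold change of 2 and an unadjusted p of 0.05, limits named in the study's text, which does not say whether its p was adjusted. Fold changes come from these pairwise fits, whereas CPM are scaled over all 6 libraries (13269 genes, pseudocount 0.5 for log2). SEs were obtained from the log2 fold change and its F statistic. Genes absent from one count table were set to 0 there, and the control columns were identical in both tables. DESeq2 1.42.0 was an alternative. Starts and promoter windows come from RefSeq tables of GRCh38.p14, which is hg38, where 5 of 5 members matched, and peak distances run to the nearest edge. Outside the members, each gene list gave those past the limits and up to 4 others from those with the highest mean CPM, and the genes most like *ARRDC3*, *ARRDC4* and *TXNIP* were the nearest 3, of which 1 is not reported here. The members and lists were chosen with earlier results of these data known. The test was checked on simulated counts, with a pass limit set only for a low spread between libraries and not for the spread observed here.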

Additional observations from a re-analysis of the deposited data

How the results depend on the processing

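Of the alpha-arrestin results, the higher level of *ARRDC3* in each knockdown against control siRNA kept its direction and stayed above 2-fold under every alternative run, and the count of members with a TRPS1 peak within 5 kb was 2 under every peak alternative except the 100 kb limit, where it was 3. Whether *ARRDC3* passed the adjusted threshold depended on the libraries. Leaving out 1 library gave log2 fold changes from 1.29 to 1.67 for *ARRDC3*, -0.97 to 0.012 for *ARRDC1*, 0.14 to 0.94 for *ARRDC2*, -0.81 to 0.97 for *ARRDC4* and -3.33 to 0.80 for *TXNIP* with *TRPS1* siRNA, 1.24 to 1.995, -1.34 to -0.35, 0.28 to 1.08, -0.81 to 1.15 and -1.83 to 1.04 for the same genes with *CHD4* siRNA, and -0.25 to 0.52, -0.58 to -0.13, 0.0083 to 0.30, -1.16 to 1.30 and -1.71 to 3.57 with *CHD4* over *TRPS1* siRNA. The value of *TXNIP* with *TRPS1* siRNA was 0.018 with library sizes alone. The number of members called also changed with the library left out, as did that of all tested genes.

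Over all tested genes, leaving out 1 library moved the genes called at the 2-fold limit from 759 to between 74 (without *TRPS1* siRNA replicate 1) and 4304 (without control siRNA replicate 2), and from 704 to between 91 (without *CHD4* siRNA replicate 1) and 3969 (without control siRNA replicate 2). For *CHD4* over *TRPS1* siRNA they ranged from 482 to 724. The number at an adjusted p under 0.05 ranged from 0 to 6070, 0 to 3874 and 0 to 103. In those fits the group left with 1 library is assumed to vary like the other. At an adjusted p under 0.05 the likelihood ratio test gave 34, 58 and 570 genes and DESeq2 39, 50 and 456, where the reported test gave 0. Without the filter on low counts, 1359, 1403 and 751 genes were called at the 2-fold limit, and 111 and 424 passed the adjusted threshold with *CHD4* siRNA and between the knockdowns. Between the knockdowns, 313 genes were called with over 2 CPM required in every library and 320 with all 6 libraries in one fit. When TMM was dropped and only library sizes were used, the median log2 fold change of all genes rose from -0.02 to 0.10 and 0.11 in the comparisons with control siRNA, and 65.9% and 67.4% of calls were then higher, against 46% and 47.7%. The cause of these shifts was not tested.

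The labels give the groups the same replicate numbers without saying what a number marks. Deviations of same-numbered libraries correlated at 0.03 and 0.004 across genes between control and knockdown libraries and at 0.61 between the knockdowns, as a hint from the data. With a replicate block, 1221 genes were called with *TRPS1* siRNA, 2 members among them (*ARRDC3* and *TXNIP*), and 32, 44 and 3372 genes passed the adjusted threshold. *TXNIP* was then at -1.23 with *TRPS1* siRNA and -0.39 with *CHD4* siRNA. Between the knockdowns under the block, *TXNIP* differed by 0.75 (adjusted p = 1.38e-07) and *ARRDC1* by -0.36 (adjusted p = 0.0182, edgeR). There 3372 of the 13143 genes tested passed. With group and replicate number both fitted to 4 libraries, little is left to measure the spread, so these p-values are weak evidence. The lowest count of a member in any library was 93.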
